A study of Mus musculus with 14 samples.

Results

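The genes described here are 37 of the 42396 listed in both count tables, chosen by name as the enzymes that carry pyruvate, ketone bodies and branched-chain amino acids (BCAAs) into the tricarboxylic acid (TCA) cycle and turn that cycle. They comprise 7 genes of pyruvate import and the pyruvate dehydrogenase complex (PDH), 4 PDH kinases and phosphatases, 11 TCA cycle enzymes, 4 genes of the malate-aspartate shuttle, 8 of BCAA oxidation and 3 of ketone oxidation. RNA came from the hearts of female mice in 2 experiments. The knockout experiment comprised hearts of 12 weeks of age, 4 of them Atf3+/+FS6KD (the controls) and 4 Atf3-/-FS6KD. In the viral experiment, 3 FS6KD hearts had received MyoAAV2-shCtrl and 3 had received MyoAAV2-shAtf3, a muscle-directed adeno-associated virus with a short hairpin RNA given to neonatal mice. FS6KD hearts, controls included, carry a gene-trap knockdown of Ndufs6, a subunit of respiratory complex I, on a mixed C57BL/6J and 129/Ola background, and no comparison here includes a heart without that knockdown. Their knockdown in the viral experiment is given by the series' design text and not by the sample labels, which also give no age for it. Atf3, a stress-responsive transcription factor, had been deleted with CRISPR in the germ line of the knockout mice.

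In the heart, pyruvate enters mitochondria through the Mpc1/Mpc2 carrier and is converted to acetyl-CoA by PDH, which is switched off by its kinases and back on by its phosphatases. Acetyl-CoA from pyruvate, fatty acids, ketone bodies and BCAAs is burnt in the TCA cycle, whose NADH feeds complex I. The malate-aspartate shuttle brings the electrons of cytosolic NADH into mitochondria, and BCAAs are broken down by a transaminase, by a dehydrogenase built like PDH and by the enzymes after it.

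Total counts ran from 33914900 to 134921000 per library in the knockout experiment, where replicates 3 and 4 of both groups were the deeper ones, and from 30085400 to 40534900 in the viral experiment. Levels are given as counts per 1000000 counts (CPM) after trimmed-mean (TMM) scaling. Atf3 mRNA was not lower in the Atf3-/-FS6KD libraries or in those labelled shAtf3. It stood at 11.5 ± 9.53 CPM (mean ± SD, n = 4) in Atf3+/+FS6KD and 25.1 ± 9.64 CPM (n = 4) in Atf3-/-FS6KD hearts, and at 12.5 ± 2.13 and 16.6 ± 4.52 CPM (n = 3 each) in the libraries labelled shCtrl and shAtf3. The Atf3+/+FS6KD mean rested on replicate 1, at 25.8 CPM against 6.89, 6.91 and 6.36 CPM in replicates 2, 3 and 4. A count per gene does not separate the deleted exons from the rest, so it does not check the knockout labels. The viral table names its columns in a way that contradicts the sample labels, with Atf3 columns tied to shCtrl samples and control columns to shAtf3 samples. Groups are given here by label, as labelled shCtrl and labelled shAtf3, and if the column names were right every direction in that experiment would turn. Ndufs6 stood at 2.34 to 3.79 CPM in all 14 libraries. Nothing in the labels says more about the independence of replicates than that each is a separate sample. The p-values weigh a group difference against the spread between these samples. In whole hearts, fewer cells of a type and less RNA per cell cannot be told apart.

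All 37 members passed the filter of more than 1 CPM in at least 1 library in both experiments. Per kilobase of annotated exon, the cytosolic malate dehydrogenase Mdh1 had the highest level of them in Atf3+/+FS6KD hearts, 1132 ± 95.7 CPM per kb (n = 4), followed by mitochondrial isocitrate dehydrogenase Idh2 at 842 ± 66.0, the 2-oxoglutarate dehydrogenase subunit Ogdh at 625 ± 25.0 and the ketone-activating transferase Oxct1 at 599 ± 32.2 CPM per kb. The SDs of Ogdh and Oxct1 overlapped, so these neighbours could not be ordered. The lowest were the PDH phosphatase Pdp2 at 6.88 ± 0.935, the methylcrotonyl-CoA carboxylase subunit Mccc1 at 13.4 ± 1.71 and the PDH phosphatase Pdp1 at 15.1 ± 1.37 CPM per kb, of which Mccc1 and Pdp1 overlapped. Within PDH, the levels per kb ran from 32.7 ± 4.48 for its binding protein Pdhx to 377 ± 31.5 for the catalytic subunit Pdha1. Mean levels per kb in the hearts labelled shCtrl ran from 5.16 for Pdp2 to 1079.7 for Mdh1. These levels use all annotated exons of a gene, so a gene with long unused exons has too low a value. For 6 members over 10% of the exonic bases overlap a gene on the opposite strand, at 61.7% for Bckdha, 23.1% for Mpc1, 16.1% for Pdha1, 15.9% for Bcat2, 13.7% for Bdh1 and 12.6% for Oxct1. Whether the counting used strand is not stated, so the reads of these genes and of their antisense partners cannot be told apart.

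The first comparison asked how the oxidation genes differed when Atf3 was deleted in FS6KD hearts. No member passed the test in Atf3-/-FS6KD hearts, but 35 of 37 had a lower mean level than in Atf3+/+FS6KD hearts, against 49.8% of all 15592 genes tested. Their median log2 fold change was −0.13, against 0.00054 over all genes, and the range ran from −0.40 for Pdp2 to 0.062 for Ivd. The 2 members on the higher side were the PDH kinase Pdk1 at 0.020 and the isovaleryl-CoA dehydrogenase Ivd, against 50.2% of all genes. By edgeR's quasi-likelihood test with Benjamini-Hochberg adjustment, 0 members and 0% of all genes were called, and the lowest adjusted p of a member was 0.389. DESeq2 and limma also called 0 members, against 1.34% and 0% of all genes. At an unadjusted p under 0.05, 7 members were lower, against 4.69% of all genes, and 0 were higher, against 5.41%. For 3 members, Mpc1, Ogdh and Mdh2, all 4 Atf3-/-FS6KD hearts lay below all 4 controls, against 2.63% of all genes, and for 0 members all 4 lay above, against 3.08%.

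The count of 3 moved with single libraries. Leaving out Atf3+/+FS6KD replicate 1 gave 7 members, against 4.81% of all genes, and leaving out replicate 3 of that group gave 16, against 5.32%. In the Atf3-/-FS6KD group, dropping replicate 1 gave 11, against 4.91%, and dropping replicate 4 gave 6, against 4.31%. With library size as the only scaling it was 0, against 0.943% of all genes, 31 members were lower and 6 higher, and the median of all genes moved to 0.062. The median log2 fold change of the members was −0.11 within replicates 1 and 2 alone and −0.092 within the deeper replicates 3 and 4.

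Markers of the cell types of the heart also had shifted means in this comparison. Of 8 cardiomyocyte markers (Myh6, Tnnt2, Tnni3, Actc1, Ryr2, Pln, Myl2 and Myl3), 7 had lower means and 1 a higher mean. Their median was −0.14 on the log2 scale, near that of the members, but they ranged from −0.36 to 0.47, with a mean of −0.095. DESeq2 called 2 of the 8, 1 of these higher, against 1.34% of all genes, and edgeR called 0. Their summed level overlapped between the groups (63461 to 76949 CPM in controls and 53645 to 71494 CPM in Atf3-/-FS6KD). All 7 fibroblast markers were higher, with sums of 1687 to 2029 and 2003 to 2732 CPM that overlapped (they did not with library size as the only scaling), and so were all 6 macrophage markers, with overlapping sums of 275 to 347 and 309 to 453 CPM. Of the fibroblast markers edgeR and limma called 0 and DESeq2 called 3, against 0%, 0% and 1.34% of all genes. Of 6 skeletal muscle markers, Myh1, Myh2, Myh4 and Tnnt3 stayed under 1 CPM, and Acta1 and Ckm, which heart muscle also uses, had lower means, with sums over the list of 3464 to 5822 and 2428 to 3098 CPM. The part of these shifts in the result was not tested, apart from 1 scaling chosen after seeing the data. When libraries were scaled to the 8 cardiomyocyte markers instead of TMM, 22 members were lower and 15 higher, with a median of −0.027, while the median of all genes stood at 0.10.

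**Figure D1:**
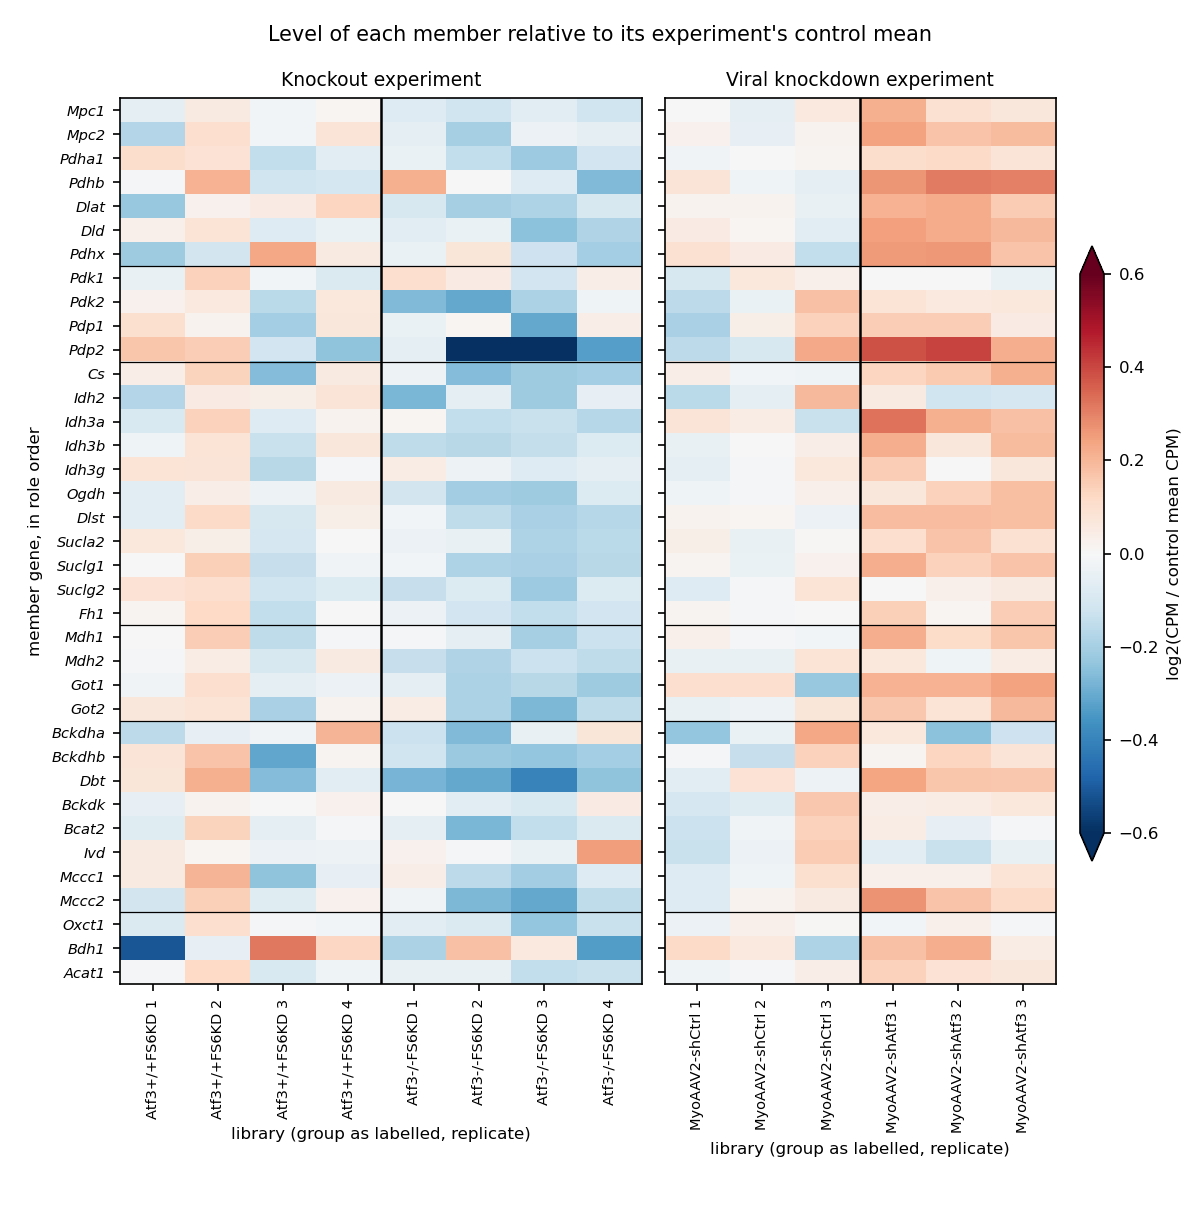
Heat map of log2(CPM / control mean CPM) for the 37 members (rows, in role order, separated by lines) in all 14 libraries (columns, with controls left of the vertical line in each panel). Blue is below and red above the control mean, and values past the ends of the scale take the end colour. Most rows are blue in Atf3-/-FS6KD and red in the libraries labelled shAtf3, and Pdp2 has the deepest colours among the Atf3-/-FS6KD libraries and among those labelled shAtf3.

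All 7 genes of pyruvate import and PDH had lower means in Atf3-/-FS6KD hearts, with a median log2 fold change of −0.095. Mpc1, one of the 2 subunits of the pyruvate carrier, stood at 458, 493, 469.8 and 479 CPM in Atf3+/+FS6KD and 450.2, 437, 454 and 437 CPM in Atf3-/-FS6KD hearts. The groups did not overlap, but the gap between them was narrow and the test was not passed (log2 fold change −0.095, SE 0.048, adjusted p = 0.544). Its partner Mpc2 overlapped between groups (log2 fold change −0.084, SE 0.073, adjusted p = 0.713). Among the PDH subunits, the acetyltransferase Dlat lay furthest from 0 at −0.14 (SE 0.078), next to the dehydrogenase Dld at −0.13 (SE 0.065) and Pdha1 at −0.13 (SE 0.071). Pdhb, which pairs with Pdha1, was close to 0 at −0.023 (SE 0.11) with values of 945, 1098, 874 and 883 CPM in controls and 1102, 947, 899.9 and 790.4 CPM in Atf3-/-FS6KD, so the 2 groups covered nearly the same range. Pdhx was at −0.072 (SE 0.10). Pdhx has a second entry in the count table, read here as a copy on an alternate locus, which took 46.1% to 53.7% of the combined counts, so the value of Pdhx is uncertain.

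Of the enzymes that switch PDH, Pdp2 and the kinase Pdk2 had lower means at an unadjusted p under 0.05, and neither passed the adjusted test. Pdp2, a phosphatase that activates PDH, stood at 43.9, 43.4, 36.2 and 33.1 CPM in Atf3+/+FS6KD and 37.5, 24.0, 25.7 and 31.2 CPM in Atf3-/-FS6KD hearts (log2 fold change −0.40, SE 0.15, adjusted p = 0.431). Atf3-/-FS6KD replicate 1 lay inside the control range and the other 3 lay below it. Pdk2 stood at 526, 539, 463 and 541 CPM against 431, 418, 453 and 507 CPM (log2 fold change −0.19, SE 0.078, adjusted p = 0.459), and Atf3-/-FS6KD replicate 4 lay among the controls. Thus a kinase and a phosphatase, which act on PDH in opposite ways, were on the same side of 0. Pdp1 (−0.069, SE 0.094) and Pdk1 (0.020, SE 0.070) differed by less than 1 SE from 0.

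All 11 TCA cycle genes had lower means, with a median log2 fold change of −0.13 and a narrow range from −0.17 for citrate synthase, Cs, to −0.028 for Idh3g. Ogdh, the first subunit of the 2-oxoglutarate dehydrogenase complex, stood at 3249.6, 3507, 3342 and 3536 CPM in Atf3+/+FS6KD and 3157, 2945, 2943 and 3223 CPM in Atf3-/-FS6KD hearts, without overlap (log2 fold change −0.15, SE 0.054, adjusted p = 0.417). The highest Atf3-/-FS6KD value lay just below the lowest control. Its partner subunit Dlst was at −0.13 (SE 0.066), and Dld, shared with PDH, at −0.13. Of the 3 subunits of the NAD-dependent isocitrate dehydrogenase, Idh3b stood at 944, 1017, 876 and 1006 CPM against 863, 856, 869 and 906 CPM (log2 fold change −0.14, SE 0.060, adjusted p = 0.487), with control replicate 3 inside the Atf3-/-FS6KD range. Idh3a was at −0.11 and Idh3g at −0.028. Cs had a wide spread in controls, 1839, 1957, 1493 and 1857 CPM, with 1749, 1491, 1542 and 1552 CPM in Atf3-/-FS6KD (log2 fold change −0.17, SE 0.090, adjusted p = 0.550). The NADP-dependent Idh2, the succinyl-CoA ligase subunits Sucla2, Suclg1 and Suclg2, and fumarase, Fh1, ranged from −0.15 (Idh2) to −0.10 (Fh1), each with overlapping groups.

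In the malate-aspartate shuttle all 4 genes had lower means, with a median log2 fold change of −0.14. Mdh2, the mitochondrial malate dehydrogenase, stood at 1466, 1521, 1379 and 1531 CPM in Atf3+/+FS6KD and 1339.9, 1302, 1347 and 1326 CPM in Atf3-/-FS6KD hearts (log2 fold change −0.15, SE 0.051, adjusted p = 0.400). The groups did not overlap and the Atf3-/-FS6KD hearts lay close together. The cytosolic aspartate transaminase Got1 stood at 1009, 1098, 985 and 997 CPM against 986, 897, 911 and 881 CPM (log2 fold change −0.15, SE 0.059, adjusted p = 0.436), with only Atf3-/-FS6KD replicate 1 reaching the lowest control. The mitochondrial transaminase Got2 (−0.14, SE 0.086) and Mdh1 (−0.10, SE 0.072) overlapped more widely.

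Among the BCAA genes 7 of 8 had lower means, with a median log2 fold change of −0.12. The smallest p of any member was that of Dbt, the transacylase core of the branched-chain keto acid dehydrogenase, at 98.1, 109, 78.0 and 89.2 CPM in Atf3+/+FS6KD and 76.9, 75.6, 70.7 and 79.0 CPM in Atf3-/-FS6KD hearts (log2 fold change −0.31, SE 0.10, adjusted p = 0.389). Control replicate 3 lay inside the Atf3-/-FS6KD range and the other 3 controls lay above all 4.

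The other subunits of that complex, Bckdhb at −0.19 (SE 0.10) and Bckdha at −0.087 (SE 0.094), overlapped between groups, and its kinase Bckdk was near 0 at −0.024 (SE 0.052). Downstream, the carboxylase subunit Mccc2 was at −0.18 (SE 0.082, adjusted p = 0.496) and Mccc1 at −0.10 (SE 0.10). The transaminase Bcat2 was at −0.14 (SE 0.069). Ivd was at 0.062 (SE 0.071), and its higher mean rested on Atf3-/-FS6KD replicate 4, at 523 CPM against 427 to 447 CPM in the other 3, and its log2 fold change was −0.0070 when that heart was left out.

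The ketone genes were Oxct1 at −0.13 (SE 0.059), the thiolase Acat1 at −0.091 (SE 0.060) and the hydroxybutyrate dehydrogenase Bdh1 at −0.058 (SE 0.17). Bdh1 had the widest spread of all members within groups, with 212, 293, 377 and 329.9 CPM in controls and 266, 342, 316 and 240.2 CPM in Atf3-/-FS6KD, so the groups lay within each other.

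The second comparison asked the same of the viral knockdown. Here the members lay on the other side of 0. In the libraries labelled shAtf3, 32 of 37 members had a higher mean than in those labelled shCtrl, against 49.1% of all 15225 genes tested, and their median log2 fold change was 0.13, against −0.0029 over all genes. The 5 lower members (50.9% of all genes) were Pdk1, Idh2, Bckdha, Bcat2 and Ivd. By edgeR 0 members were called, against 0.539% of all genes, and the lowest adjusted p was 0.0741, that of Pdhb. At an unadjusted p under 0.05, 17 members were higher, against 5.05% of all genes, and 0 were lower, against 7.65%. In 20 members all 3 libraries labelled shAtf3 lay above all 3 labelled shCtrl, against 8.48% of all genes, and in 0 members all 3 lay below, against 9.94%. DESeq2 called 2 members, Pdhb (adjusted p = 0.000888) and Dld (adjusted p = 0.0269), against 2.02% of all genes, and limma called 0, against 0.558%. Over all alternatives the adjusted p ranged from 0.000888 to 0.308 for Pdhb and from 0.0269 to 0.510 for Dld.

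All 8 cardiomyocyte markers were higher in the libraries labelled shAtf3 too, with a median log2 fold change of 0.11 and overlapping sums (59944 to 67403 CPM labelled shCtrl and 64836 to 70504 CPM labelled shAtf3). All 7 fibroblast markers were lower, with sums of 2329 to 3198 and 1736 to 1819.5 CPM, and all 6 macrophage markers were lower, with sums of 416 to 478 and 359.6 to 427 CPM. The fibroblast markers had a median log2 fold change of −0.82. Of these 7, edgeR and limma each called 4 and DESeq2 called 7, against 0.539%, 0.558% and 2.02% of all genes. The same tests called 0 of the macrophage markers. The fibroblast sums did not overlap, and the macrophage sums did, except with library size as the only scaling. With libraries scaled to the 8 cardiomyocyte markers, 21 members were higher and 16 lower, with a median of 0.011, while the median of all genes stood at −0.12.

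Pyruvate import and PDH was the role group whose libraries separated in every gene. All 7 members were higher in the libraries labelled shAtf3 without overlap, against 8.48% of all genes, with a median log2 fold change of 0.20. Pdhb, a subunit of the first PDH enzyme, stood at 1092, 1017 and 994 CPM in the libraries labelled shCtrl and 1241, 1283 and 1277 CPM in those labelled shAtf3 (log2 fold change 0.29, SE 0.057, adjusted p = 0.0741). The groups were separated by more than the range within either. Dld, the subunit that PDH shares with the other keto acid dehydrogenases, stood at 660.4, 644 and 611 CPM against 758, 745 and 730.5 CPM (log2 fold change 0.22, SE 0.055, adjusted p = 0.160). The carrier subunit Mpc2 stood at 329, 312 and 329 CPM against 382, 364 and 369 CPM (log2 fold change 0.20, SE 0.055, adjusted p = 0.193), again with a gap wider than the spread. Mpc1 was at 0.13 (SE 0.062), Dlat at 0.19 (SE 0.054), Pdhx at 0.23 (SE 0.073) and Pdha1 at 0.10 (SE 0.049). For Mpc1 the lowest library labelled shAtf3 and the highest labelled shCtrl were nearly level, at 478 and 475 CPM. The mean log2 CPM of the 7 genes was 8.97 ± 0.033 (n = 3) in the libraries labelled shCtrl and 9.17 ± 0.027 (n = 3) in those labelled shAtf3.

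The PDH kinases and phosphatases did not separate. Pdp2 stood at 26.3, 27.4 and 34.3 CPM against 38.2, 38.9 and 34.1 CPM (log2 fold change 0.34, SE 0.11, adjusted p = 0.243), and the library labelled shCtrl replicate 3 lay inside the range of those labelled shAtf3. Without that library Pdp2 was the 1 member called by edgeR, where 1.88% of all genes were called, with a log2 fold change of 0.47 and an adjusted p of 0.023, on the assumption that the remaining libraries vary alike, and its adjusted p ranged from 0.0230 to 0.478 over all alternatives. Pdp1 (0.12, SE 0.086), Pdk2 (0.069, SE 0.083) and Pdk1 (−0.013, SE 0.061) overlapped between groups.

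**Figure D2:**
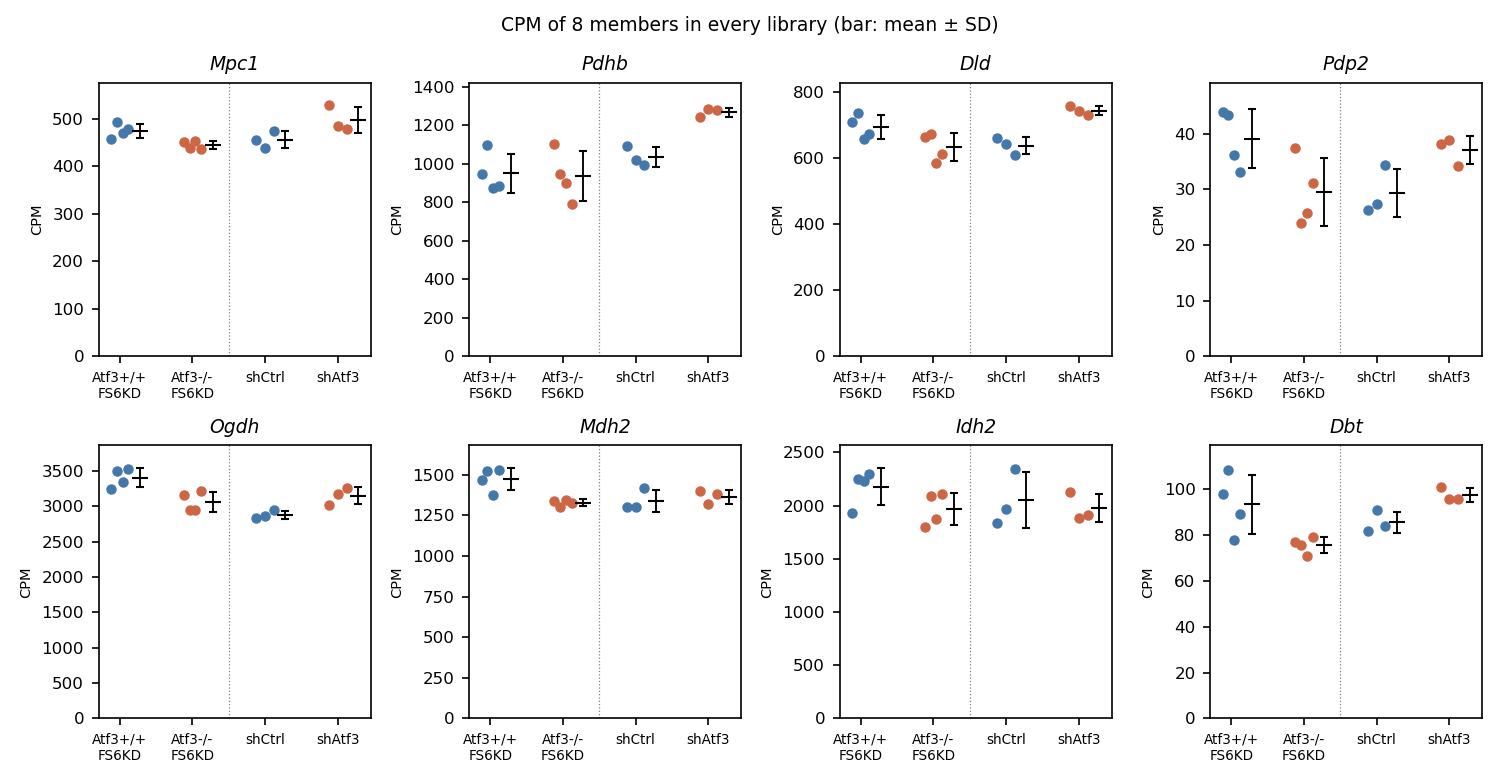
CPM (y axis, from 0) of 8 members in each of the 14 libraries. Points are libraries, blue for controls and orange for Atf3-/-FS6KD and for the libraries labelled shAtf3, and bars are the mean ± SD. Mpc1 and Ogdh separate in both experiments, Mdh2 in the knockout experiment, Pdhb, Dld and Dbt in the viral experiment, and Pdp2 and Idh2 in neither.

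Of the 11 TCA cycle genes 10 were higher in the libraries labelled shAtf3, against 49.1% of all genes. Among these, 7 were without overlap, against 8.48% of all genes, and the median log2 fold change of the 11 was 0.13. Dlst, the transferase of the 2-oxoglutarate dehydrogenase complex, stood at 786, 781 and 756 CPM against 879.6, 881 and 879 CPM (log2 fold change 0.18, SE 0.051, adjusted p = 0.190), and the 3 libraries labelled shAtf3 were almost level. Idh3a, the catalytic subunit of the NAD-dependent isocitrate dehydrogenase, stood at 830.4, 810.3 and 717 CPM against 984, 913 and 888 CPM (log2 fold change 0.24, SE 0.072, adjusted p = 0.223), the highest fold change of the 11. Cs stood at 1619, 1560.1 and 1548 CPM against 1724, 1756 and 1826 CPM (log2 fold change 0.17, SE 0.052, adjusted p = 0.243). All 3 were thus higher without overlap, and none passed the adjusted test. Ogdh, Idh3b, Sucla2 and Suclg1 also did not overlap, at 0.13, 0.16, 0.12 and 0.17. Fh1 (0.10), Idh3g (0.072) and Suclg2 (0.029) overlapped. Idh2 stood at 1834, 1969.7 and 2342 CPM against 2129, 1887 and 1911 CPM (log2 fold change −0.052, SE 0.092, adjusted p = 0.867), with its highest value in the library labelled shCtrl replicate 3.

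In the malate-aspartate shuttle the 4 genes were higher, 3 without overlap (8.48% of all genes), with a median log2 fold change of 0.15. Mdh1 stood at 2829.5, 2749 and 2737 CPM against 3219.8, 2987 and 3106 CPM (log2 fold change 0.16, SE 0.052, adjusted p = 0.243). Got1 stood at 1091, 1092 and 868 CPM against 1176, 1175 and 1202 CPM (log2 fold change 0.22, SE 0.087, adjusted p = 0.344), where the library labelled shCtrl replicate 3 lay far below its group. Got2 was at 0.15 (SE 0.059) and Mdh2 at 0.028 (SE 0.059). Mdh2, one of the 3 members without overlap in the knockout experiment, overlapped between the groups here.

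The BCAA genes were split. Their median log2 fold change was 0.048, with 5 higher and 3 lower. Dbt stood at 82.0, 90.8 and 83.8 CPM against 100.9, 95.9 and 95.6 CPM (log2 fold change 0.19, SE 0.062, adjusted p = 0.258), and Mccc2 at 58.8, 63.0 and 64.4 CPM against 74.8, 69.9 and 67.1 CPM (log2 fold change 0.19, SE 0.066, adjusted p = 0.289). These were the only BCAA members whose groups did not overlap, against 8.48% of all genes. Bckdhb (0.074), Bckdk (0.049) and Mccc1 (0.048) were on the higher side with overlap. Bckdha stood at 288, 328 and 397 CPM against 353, 285 and 309.9 CPM (log2 fold change −0.10, SE 0.12, adjusted p = 0.798), Ivd at −0.079 (SE 0.078) and Bcat2 at −0.0051 (SE 0.075). The library labelled shCtrl replicate 3 was the highest of its group in 21 of the 37 members, Bckdha, Bcat2, Ivd and Idh2 among them, and the lowest in 10. Without it all 37 members were higher, with a median of 0.15, and 29 did not overlap, against 15.0% of all genes. The 5 members that had been lower stood there between 0.0033 and 0.068.

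None of the 3 ketone genes passed the test, although the mean log2 CPM of the group did not overlap between the labelled groups. Acat1 was higher without overlap, at 772, 779.7 and 807 CPM against 866, 835 and 824 CPM (log2 fold change 0.10, SE 0.053, adjusted p = 0.479). Oxct1 overlapped, at 2063, 2159 and 2125 CPM against 2094, 2158 and 2104 CPM (log2 fold change 0.0020, SE 0.050, adjusted p = 0.994), and its SE bounds any difference more tightly than for most members. Bdh1 overlapped at 0.15 (SE 0.086).

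**Figure D3:**
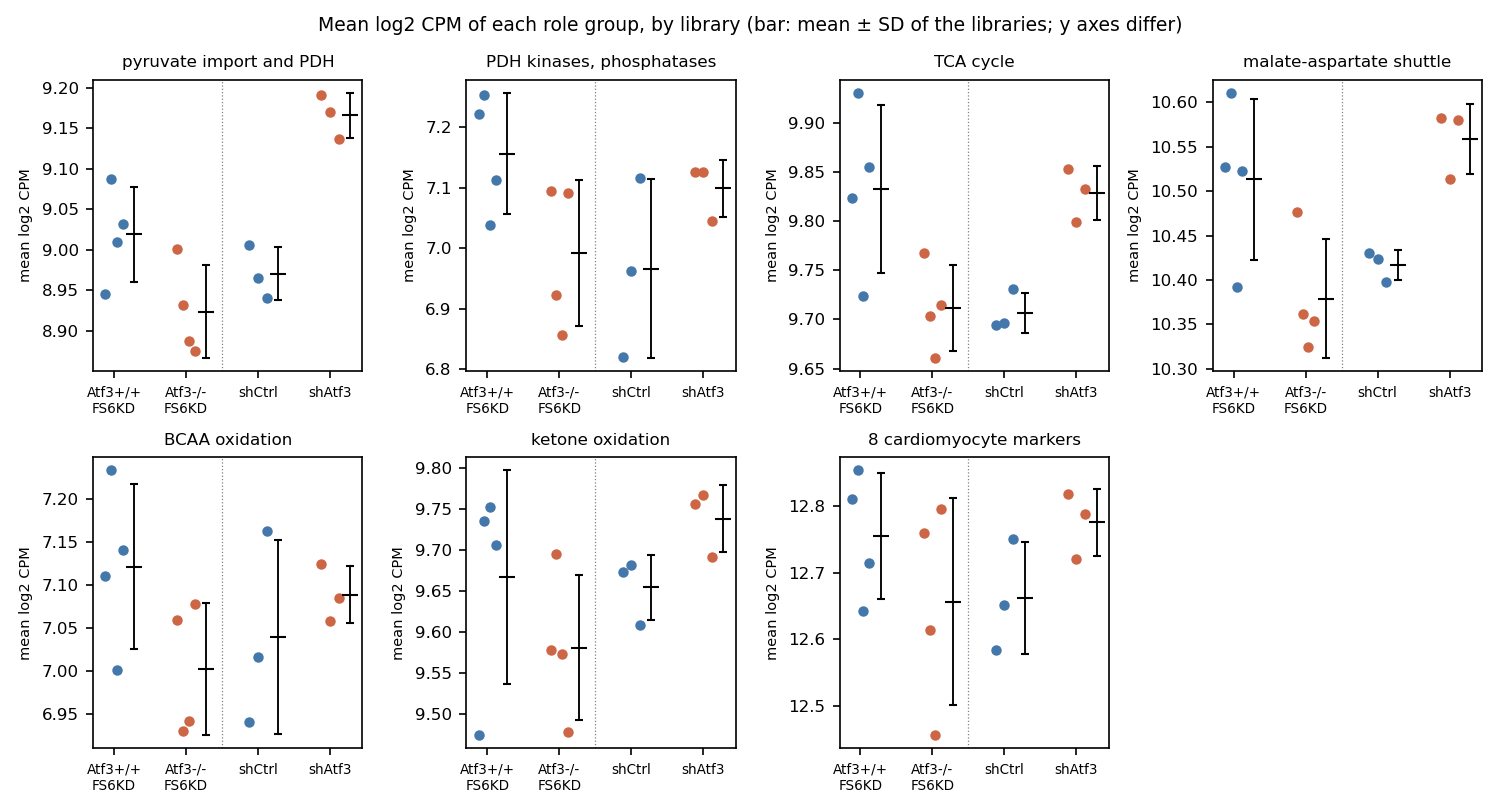
Mean log2 CPM (y axis, scales differ) of the members of each role group and of the 8 cardiomyocyte markers in each library, with the mean ± SD of the libraries as bars. In the viral experiment the libraries separate for pyruvate import and PDH, the TCA cycle, the malate-aspartate shuttle and ketone oxidation, whereas PDH kinases and phosphatases, BCAA oxidation and the cardiomyocyte markers overlap. In the knockout experiment all 7 panels overlap.

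Whether the effects of the 2 experiments differed was tested directly, as the knockout effect minus the labelled knockdown effect over all 14 libraries. By edgeR 0 of 37 members and 0.166% of 15708 genes passed, and the lowest adjusted p was 0.0877, that of Dld. At an unadjusted p under 0.05, 23 members differed, all with a lower effect in the knockout, against 7.53% of all genes in that direction. limma called 0 members (0.306% of all genes) and DESeq2 called 12 (4.27%), namely Mpc1, Dlat, Dld, Pdp2, Idh3a, Idh3b, Ogdh, Dlst, Suclg1, Got1, Dbt and Mccc2. A total of 32 members were lower in the knockout and higher in the labelled knockdown, against 31.4% of the 15109 genes tested in both. With the viral groups turned, as the column names would have them, the same 32 members and the same share of all genes would be lower in both experiments. As labelled, Idh2, Bckdha and Bcat2 were lower in both, and Pdk1 and Ivd were higher in the knockout and lower in the labelled knockdown. The 2 experiments share no library, and they differ in how Atf3 was targeted.

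These values depend on which viral group is the knockdown. With the viral groups turned, a test added after seeing the data, the median difference of the members went from −0.26 to 0.010 on the log2 scale, with 15 members below 0 and 22 above. At an unadjusted p under 0.05, 0 members differed, against 4.14% of all genes, and edgeR, limma and DESeq2 each called 0 members, against 0%, 0% and 0.0295% of all genes. The largest differences were then those of Pdhb at 0.27 (SE 0.14) and Idh2 at −0.20 (SE 0.13).

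As labelled, the size of the difference was largest for Pdp2 at −0.74 (SE 0.21, adjusted p = 0.112) and Dbt at −0.50 (SE 0.13, adjusted p = 0.0917) on the log2 scale. The next were Got1 at −0.38 (SE 0.10, adjusted p = 0.103) and Mccc2 at −0.37 (SE 0.11, adjusted p = 0.125). Dld stood at −0.36 (SE 0.084, adjusted p = 0.0877) and Ogdh at −0.29 (SE 0.074, adjusted p = 0.0928). With the viral groups turned, these 6 stood at −0.062 (SE 0.21), −0.11 (SE 0.13), 0.070 (SE 0.10), 0.0051 (SE 0.11), 0.093 (SE 0.084) and −0.019 (SE 0.074) in the same order. These genes sit in different roles, from PDH control through the TCA cycle to BCAA oxidation. At the other end, as labelled, Bckdha at 0.0074 (SE 0.17, adjusted p = 0.991) and Pdk1 at 0.029 (SE 0.10, adjusted p = 0.910) lay within 1 SE of no difference. With the viral groups turned, Bckdha stood at −0.18 (SE 0.17), rank 3 by size among the 37 members, and Pdk1 at 0.010 (SE 0.095). The place of Bckdha at the small end thus depends on the labels. The call depended on single libraries: 1 member, Dlat, was called by edgeR without Atf3+/+FS6KD replicate 1, against 0.427% of all genes, and 3 members, Dld, Cs and Dbt, when replicate 3 of the same group was left out, against 1.07% of all genes.

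**Figure D4:**
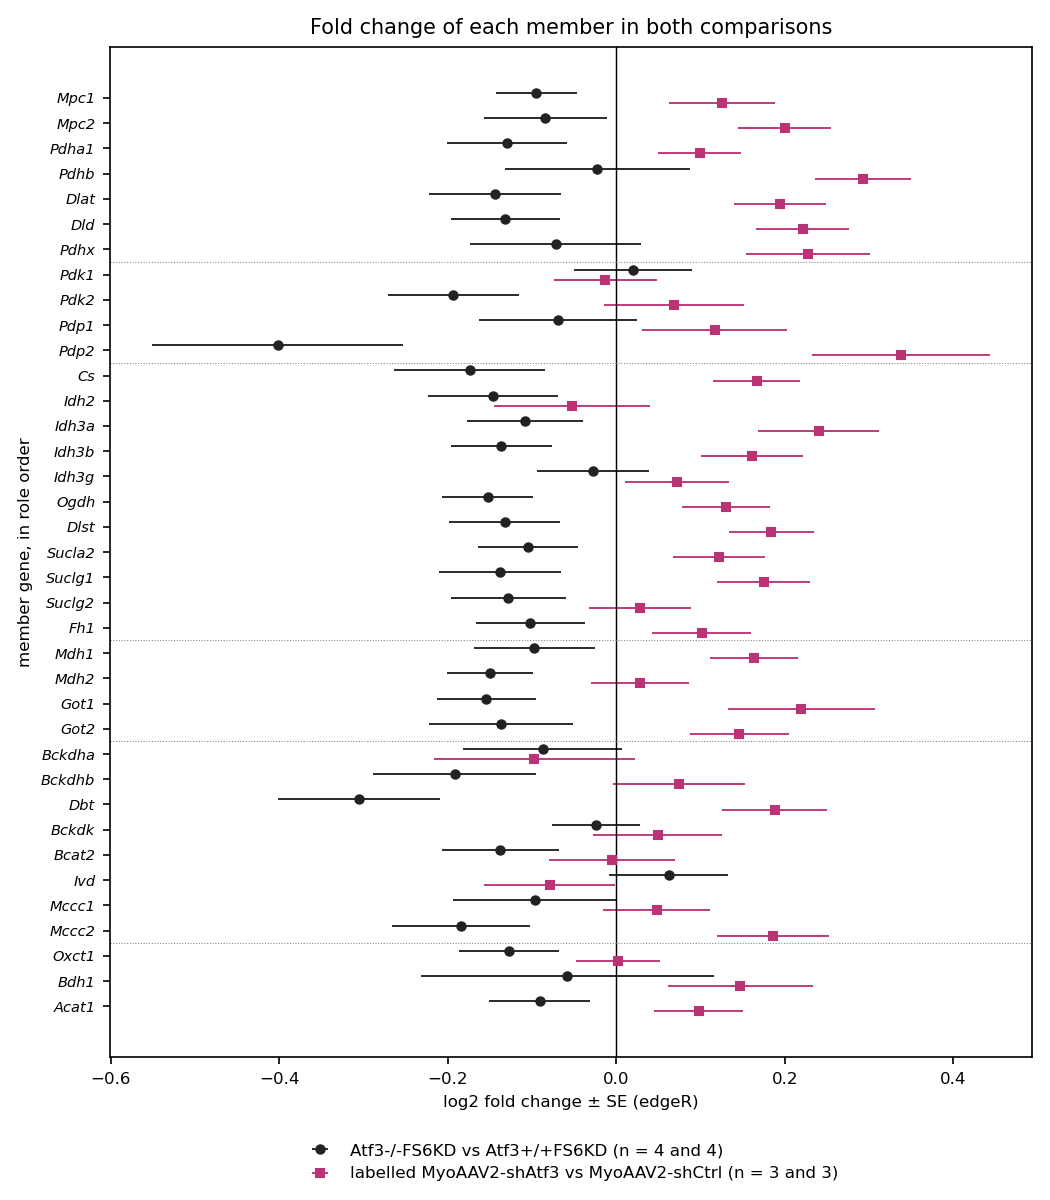
Log2 fold change ± SE (x axis, edgeR) of each member (rows, in role order) in the knockout experiment (black circles) and the viral experiment as labelled (magenta squares). The black points lie left of 0 in 35 rows and the magenta points right of 0 in 32 rows, with none passing the adjusted test in either.

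A wider list of 43 genes of the same routes was tested in the same fits. In the knockout experiment 36 were lower, against 49.8% of all genes, and 7 higher, the latter including 4 of 9 pyruvate and 2 of 3 ketone genes of the list. There 0 passed edgeR's test and 1 passed DESeq2's, against 0% and 1.34% of all genes. At an unadjusted p under 0.05, 12 were lower and 1 higher, against 4.69% and 5.41% of all genes. The gene DESeq2 called was Slc25a13, an aspartate-glutamate carrier of the malate-aspartate shuttle, at 277, 269, 263 and 263 CPM in controls and 213, 228, 198 and 233 CPM in Atf3-/-FS6KD (log2 fold change −0.30, SE 0.062, edgeR adjusted p = 0.253, DESeq2 adjusted p = 0.00240). The groups did not overlap. The next smallest p-values were those of the pyruvate carboxylase Pcx (−0.35, SE 0.10), the PDH phosphatase regulatory subunit Pdpr (−0.22, SE 0.067) and the branched-chain keto acid dehydrogenase phosphatase Ppm1k (−0.46, SE 0.15). In the viral experiment 36 were higher, against 49.1% of all genes, and 7 lower. There 0 passed edgeR's test and 2 passed DESeq2's, against 0.539% and 2.02% of all genes. At an unadjusted p under 0.05, 13 were higher and 2 lower, against 5.05% and 7.65% of all genes. The 2 genes DESeq2 called were the alanine transaminase Gpt (log2 fold change 0.49, SE 0.12, adjusted p = 0.138) and the monocarboxylate transporter Slc16a1 (log2 fold change 0.21, SE 0.055, adjusted p = 0.162), where the adjusted p is edgeR's and DESeq2's were 0.00429 and 0.0363. Idh1 (0.26) and the aspartate-glutamate carrier Slc25a12 (0.20) came next.

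Pdk4, a PDH kinase induced by fasting and fatty acids, varied more within groups than between them. It stood at 705, 88.0, 352 and 177 CPM in Atf3+/+FS6KD and 875, 413, 521 and 231 CPM in Atf3-/-FS6KD hearts (log2 fold change 0.62, SE 0.60, adjusted p = 0.744). In the viral experiment it stood at 440.3, 184 and 136 CPM labelled shCtrl and 360.3, 231 and 227 CPM labelled shAtf3 (log2 fold change 0.11, SE 0.38, adjusted p = 0.940). Ppargc1a, which encodes a coactivator of mitochondrial genes, stood at 119.6 ± 16.5 and 104 ± 5.97 CPM (n = 4 each) in the knockout experiment (log2 fold change −0.21, SE 0.10, adjusted p = 0.527), where the groups overlapped. It stood at 105 ± 6.19 and 127 ± 2.61 CPM (n = 3 each) in the viral experiment as labelled (log2 fold change 0.28, SE 0.063, adjusted p = 0.121). These groups did not overlap, and DESeq2 called the gene there, with an adjusted p of 0.0131, while limma did not, with 0.110.

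The members are spread over the genome, and 2 of them, Mpc2 (chr1:165461260-165481218, plus strand) and Fh1 (chr1:175601378-175625635, minus strand, GRCm38.p6), share chromosome 1 with Atf3 at distances of 25.71 and 15.57 Mb, with knockout log2 fold changes of −0.084 and −0.10 that sit inside the range of the rest. Promoter windows of RefSeq (GRCm38.p6, from 250 bases before to 50 after a transcription start) were found for 33 of 37 members, 44 windows in all, and were searched on both strands for 4 motifs spelled out here. The short site of oestrogen-related receptors (ERR), AAGGTCA, was in 4.55% of the members' windows and 4.72% of all 32851 windows. The core of the NRF1 site, GCGCATGC, was in 4.55% and 2.71%. The cAMP response element (CRE), TGACGTCA, was in 9.09% and 1.79%, that is in 4 windows of 2 genes, and the AP-1 site, TGANTCA, was in 0% and 7.81%. Windows of a gene overlap, so they are not independent.

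The CRE was in Mdh2 and Ogdh, 2 of the 3 members whose groups did not overlap in the knockout experiment. That set was picked from these same data, and none of it was called. Its size was 0 with library size as the only scaling and 3 to 16 when 1 library was left out. A link of the motif to the fold changes was not tested. The stretches around the CRE are shown first, and the other 3 stretches are the remaining matches among the members. The motif is in capitals, and each stretch reads 5′ to 3′ on the strand named (GRCm38.p6).
Mdh2 CRE, chr5:135778511-135778540, plus strand: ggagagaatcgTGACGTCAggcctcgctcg
Ogdh CRE, chr11:6291535-6291564, plus strand: acccaattctgTGACGTCAcgtcacgccca
Ogdh ERR site, chr11:6292154-6292182, minus strand: ccgcaggcaccAAGGTCAgcgccgtgtcc
Ogdh NRF1 core, chr11:6292532-6292561, plus strand: ctaggtgttgtGCGCATGCgtaactcaact
Got1 ERR site, chr19:43524833-43524855, minus strand: cccagAAGGTCAggaggttgtcc

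Ogdh (chr11:6291597-6359094, plus strand) has several annotated starts, and its 3 motifs lie in windows of different starts. The ERR match in Ogdh reads on the strand opposite to the gene, and that in Got1 (chr19:43499752-43524605, minus strand) on the strand of the gene. Mpc1, the remaining member without overlap in the knockout experiment, held none of the 4 motifs in its windows. A match shows only that the letters are present, and binding was not measured.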

How the data were processed

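Whole-heart RNA of 14 FS6KD mice was sequenced in 2 experiments. According to the study's methods for the knockout experiment, RNA was made into stranded mRNA libraries, read single-end, mapped to GRCm38 (patch p6) and counted. The submitters' processing notes name featureCounts 2.0.0, and the aligner is not given in the sources used here. The authors' deposited tables hold estimated counts (expected counts) per gene, neither normalized nor pooled. Of the values of a library 19.3% to 24.4% are not whole. Among the 37 members, 7 have whole values in every library. Values were rounded before testing.

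Libraries were grouped by the GEO labels. Kept were genes with a CPM above 1 in any library compared (minimum 1 library). Counts were scaled by TMM and tested two-sided with edgeR 4.0.16 (quasi-likelihood F-test, no covariate) in R 4.3.3, with Benjamini-Hochberg adjustment over all genes at 0.05. The SE is the absolute log2 fold change divided by the square root of F. Alternatives were DESeq2 1.42.0, limma 3.58.1 (prior count 2), other scalings and filters, summed gene copies, leaving out each library, a replicate block, the depth batch (replicates 3 and 4) as a term, and each depth batch alone. Scaling to cardiomyocyte markers and turning the viral groups were added after seeing the data. Simulated counts were used to test the scripts. No replicate pair was alike within sampling noise. Exonic lengths came from the GENCODE annotation of GRCm38, and positions from RefSeq. The members, the wider list and the tests were chosen with earlier results of these data known. All members are named, and of the wider list the 4 smallest p-values per comparison plus Pdk4. Other genes that the naming rule covers are not reported here. Of the other marker lists, endothelial sums overlapped in both experiments, 4 of 6 skeletal muscle, 5 of 6 adipocyte and 3 of 5 atrial markers stayed under 1 CPM, lymphocyte sums did not exceed 3.55 CPM, and erythrocyte sums overlapped.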

Additional observations from a re-analysis of the deposited data

Results flagged for a closer look

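Among the members and role groups of the 4-library groups, 88 sets of values were examined for 1 library far from the others. There were 3 such sets, where chance alone gives about 1 in 20. In Atf3-/-FS6KD hearts, Mpc2 was lowest in replicate 2, at 309 CPM against 341 to 346 CPM in the other 3. In the same group, Suclg1 was highest in replicate 1, at 416 CPM against 368 to 374 CPM. In Atf3+/+FS6KD hearts, the mean log2 CPM of the 3 ketone oxidation genes was lowest in replicate 1, at 9.47 against 9.71 to 9.75 in the other 3, and Bdh1 had its lowest control value there.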

How the results depend on the processing

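In the knockout experiment 0 members were called by edgeR, limma or DESeq2 under any alternative run, against 0% to 1.34% of all genes. There, 22 of 37 members kept the sign of their log2 fold change under every alternative run, and 29 did so when the scaling to cardiomyocyte markers, chosen after seeing the data, is left aside. The others crossed 0 with library size alone Pdhb (0.040), Idh3g (0.034), Bckdk (0.037), Bdh1 (0.0055), and within replicates 1 and 2 Pdhb (0.0084), Pdhx (0.18), Ivd (−0.021), Bdh1 (0.27), and within replicates 3 and 4 Idh3g (0.019), and with the cardiomyocyte scaling Mpc1 (0.0094), Mpc2 (0.018), Pdhb (0.085), Pdhx (0.023), Pdp1 (0.027), Idh3g (0.077), Fh1 (0.0025), Mdh1 (0.0065), Bckdha (0.0092), Bckdk (0.073), Mccc1 (0.0072), Bdh1 (0.046), Acat1 (0.014). Leaving out 1 library gave ranges across 0 for Pdhb (−0.11 to 0.053), Pdhx (−0.14 to 0.012), Pdk1 (−0.0089 to 0.068), Pdp1 (−0.13 to 0.0020), Idh3g (−0.080 to 0.00015), Ivd (−0.0070 to 0.093), Bdh1 (−0.20 to 0.063). The count of members lower without overlap was 0 with library size alone (0.943% of all genes). It was 22 within replicates 1 and 2 (17.5% of all genes) and 19 within replicates 3 and 4 (19.7%). There, 2 libraries a group leave more room for separation. When 1 library was left out, the count was 3 to 16 (3.59% to 5.32% of all genes). Scaled to the cardiomyocyte markers, the median of the members was −0.027 in the knockout and 0.011 in the viral experiment. In the viral experiment 21 of 37 members kept their sign under every alternative run, and 28 without that scaling. The others crossed 0 with library size alone Suclg2 (−0.011), Mdh2 (−0.012), Oxct1 (−0.038), and with no filter Bcat2 (0.0021), and with the cardiomyocyte scaling Pdha1 (−0.014), Pdk2 (−0.039), Idh3g (−0.041), Suclg2 (−0.082), Fh1 (−0.015), Mdh2 (−0.085), Bckdhb (−0.036), Bckdk (−0.060), Mccc1 (−0.063), Oxct1 (−0.11), Acat1 (−0.015). Leaving out 1 library gave Pdk1 (−0.060 to 0.019), Pdk2 (−0.0042 to 0.17), Idh2 (−0.13 to 0.055), Suclg2 (−0.0092 to 0.071), Bckdha (−0.20 to 0.036), Bcat2 (−0.066 to 0.068), Ivd (−0.14 to 0.0050), Oxct1 (−0.016 to 0.017). The median of all members was 0.086 with library size alone. DESeq2 called 2 members (2.02% of all genes), and edgeR with no filter called 1 (1.13%), Pdhb (adjusted p = 0.0174). Leaving out 1 library gave 0 to 1 (0.00658% to 1.88%). For the difference between experiments DESeq2 called 12 members (4.27% of all genes). By edgeR, leaving out 1 library gave 0 to 3 (0% to 1.07%), and turning the viral groups gave 0 (0%). The causes were not tested.

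Replicate numbers are shared between groups but did not pair the libraries: deviations of same-numbered libraries correlated at 0.0064 to 0.15 in the knockout and −0.00037 to 0.15 in the viral experiment, not above 0.1 throughout. With the replicate block edgeR called 0 members in both experiments, against 0% and 0.131% of all genes, and the medians were −0.13 and 0.12. Precision was set by the spread between 3 or 4 hearts rather than by counting, since every member had at least 24.0 CPM in every library. The depth of replicates 3 and 4 is split evenly between the knockout groups.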
